A study of Homo sapiens with 34 samples.

Results

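The genes described here are 7 laminin chains (LAMA3, LAMA5, LAMB1, LAMB2, LAMB3, LAMC1 and LAMC3) and the laminin-binding protein nidogen-1 (NID1). They were taken by symbol from a table of gene-level read counts, and all 8 of 8 were found among its 26336 genes. The RNA, selected for poly(A) tails, came from 4 prostate cell lines of human origin, in 34 libraries that fall into 17 groups. RWPE is labelled as epithelium of the prostate that does not form tumours. LNCaP is labelled as derived from a lymph node metastasis of prostate carcinoma, and the series uses it as a model of early adenocarcinoma. VCaP and MDAPCa2a are labelled as bone metastatic lines. Each line is 1 established culture, so a difference between lines describes these cultures and not the disease stages they stand for.

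Cells grew on tissue culture plastic or on a coating of amorphous calcium phosphate (ACP), a mineral surface used in place of bone. Control medium was the usual medium of each line. For RWPE this was serum-free keratinocyte medium with epidermal growth factor and pituitary extract, and for the cancer lines it contained serum. Stripped medium contained serum treated with charcoal and dextran, which removes steroid hormones. Androgen medium was, by the protocol, stripped medium to which androgen was added, at 100 mM according to the labels; the base medium is not given separately for RWPE. DHT is named in the titles and testosterone in the treatment field, so the agent is called androgen here. RWPE had plastic control (2 libraries), ACP control (2) and ACP androgen (3) groups. LNCaP and VCaP each had plastic control, plastic stripped, ACP control, ACP stripped and ACP androgen groups. MDAPCa2a had plastic control, plastic stripped, ACP stripped and ACP androgen groups, and its plastic carried a protein coating that its ACP did not. These groups held 2 libraries each, except VCaP plastic stripped, which held 1. Nothing in the labels says that the libraries of a group came from separate cultures, so p-values measure the spread between these libraries, which may be technical. The RNA is bulk RNA, so fewer cells with a transcript and less transcript per cell cannot be told apart.

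Laminins are trimers of 1 alpha, 1 beta and 1 gamma chain that assemble inside the cell and are secreted as the sheet-forming scaffold of the basement membrane. Each trimer is named by its chains. LAMA3 and LAMB3 are chains of the epithelial laminin that anchors hemidesmosomes, while LAMA5 or LAMA3 can also pair with LAMB1 or LAMB2 and with LAMC1. Nidogen-1 binds the gamma-1 chain and links the laminin sheet to type IV collagen. In the normal prostate hemidesmosomes anchor the basal cells to such a membrane, and adenocarcinomas lack basal cells.

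Total counts ran from 15.4 M to 44.8 M reads per library (M, the denominator of CPM, the counts scaled to library size). The 8 plastic control libraries stood apart from the other 26: they were deeper (34.9 M to 44.8 M against 15.4 M to 37 M), and all 8 held FGG, a liver gene, at 1.41 to 2.84 CPM, which had 0 reads in 25 of the other 26. They are labelled as continuous culture and the others as day 4, although the treatment protocol has plastic control cultures grown for 4 days as well. Every comparison that sets plastic control against another group is therefore also a comparison of these library sets, and the parts cannot be told apart. RWPE and VCaP each carried a defining marker. The basal keratin KRT5 lay at 2348 to 10150 CPM in RWPE and at no more than 13.0 CPM in the other lines. The ETS factor ERG lay at 126 to 882 CPM in VCaP and at no more than 2.3 CPM elsewhere. Of the luminal markers, KLK3 and TMPRSS2 were lower in every RWPE library than in any cancer line library. KRT8, KRT18 and KLK2 overlapped between RWPE and LNCaP. CPM values here use library sizes scaled by TMM over all lines, and a gene was called changed when edgeR's quasi-likelihood test gave an adjusted p below 0.05 over all genes tested.

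A single beta chain led in each of the 4 lines. Different genes were set side by side per kilobase of exon, with the union of all exons of a gene as its length. On this scale LAMB3 made up a median of 63.5% of the summed LAMB1, LAMB2 and LAMB3 level in RWPE. It was the highest of the 3 in 6 of 7 libraries. In LNCaP the highest was LAMB2, with a median share of 89.2% (range 77.2% to 96.1%) and the first place in 10 of 10 libraries. MDAPCa2a resembled LNCaP, with LAMB2 at a median of 84.7% (82.7% to 88.2%) in 8 of 8 libraries. In VCaP it was LAMB1, at a median of 88.3% (80.7% to 91.9%) in 9 of 9 libraries. The leading chain was thus the same on both surfaces and in every medium, apart from RWPE on ACP with androgen. In 1 library of that group LAMB1 was the highest (42.4 against 32.3 CPM per kilobase for LAMB3). In another LAMB3 was barely ahead of LAMB1 (22.9 against 22.2). These shares are descriptions and were not tested.

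The promoters of the 3 beta chains and of LAMC1 are shown because the leading beta chain was not the same in all lines and because LAMC1 was higher with androgen in LNCaP and VCaP. They are RefSeq sequences of build GRCh38.p14 that run from 250 bases before to 50 bases after the transcription start, 5′ to 3′ on the gene's strand. Capitals mark matches, on either strand, to the GC box GGGCGG, the androgen receptor half-site AGAACA and the AP-1 site TGANTCA. LAMB1 lies on the minus strand at chr7:108003112-108003411, LAMB2 on the minus strand at chr3:49133001-49133300, the first of 3 LAMB3 starts on the minus strand at chr1:209652376-209652675, and LAMC1 on the plus strand at chr1:183023170-183023469.
LAMB1: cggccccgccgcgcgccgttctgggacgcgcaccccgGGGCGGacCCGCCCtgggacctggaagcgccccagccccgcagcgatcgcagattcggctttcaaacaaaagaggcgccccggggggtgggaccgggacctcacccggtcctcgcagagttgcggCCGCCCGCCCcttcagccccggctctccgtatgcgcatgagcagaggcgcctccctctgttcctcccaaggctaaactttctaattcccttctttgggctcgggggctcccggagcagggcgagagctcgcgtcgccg
LAMB2: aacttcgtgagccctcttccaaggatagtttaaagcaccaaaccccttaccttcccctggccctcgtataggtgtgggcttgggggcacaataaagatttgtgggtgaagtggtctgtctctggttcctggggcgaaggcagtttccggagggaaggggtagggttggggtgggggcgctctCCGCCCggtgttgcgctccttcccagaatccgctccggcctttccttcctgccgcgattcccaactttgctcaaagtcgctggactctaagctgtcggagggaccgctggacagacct
LAMB3: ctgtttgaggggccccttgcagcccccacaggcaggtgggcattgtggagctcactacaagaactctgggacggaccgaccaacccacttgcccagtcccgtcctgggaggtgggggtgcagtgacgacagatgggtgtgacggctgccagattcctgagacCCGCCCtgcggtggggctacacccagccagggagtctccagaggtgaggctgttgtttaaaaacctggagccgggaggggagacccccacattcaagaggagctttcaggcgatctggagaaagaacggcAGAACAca
LAMC1: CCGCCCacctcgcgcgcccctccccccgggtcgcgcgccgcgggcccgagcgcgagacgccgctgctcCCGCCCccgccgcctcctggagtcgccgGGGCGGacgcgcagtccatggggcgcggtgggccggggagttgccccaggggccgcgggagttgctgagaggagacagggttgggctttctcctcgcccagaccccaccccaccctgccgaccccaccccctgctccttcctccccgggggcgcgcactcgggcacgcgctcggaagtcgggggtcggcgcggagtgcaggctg
LAMB1 held 4 GC boxes, 2 of which overlap, LAMC1 held 3, and LAMB2 and LAMB3 held 1 each. The only androgen receptor half-site among these 4 windows was in LAMB3. Of the LAMB3 starts not shown, the second held 1 half-site and 1 GC box. The third held 0 half-sites, 1 AP-1 site and 1 GC box. Of the 35116 promoters in the RefSeq table, 45% held a GC box, 14.8% the half-site and 7.71% the AP-1 site. Of the other genes with an entry, LAMA3 held 2 AP-1 sites and 1 GC box, LAMA5 held 5 GC boxes and NID1 held 1. A match to these letters is a description of the sequence and does not show that a factor binds there. LAMC3 had no entry. No binding data were used.

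LAMB3, the beta chain of hemidesmosomal laminin, was measured in RWPE at 425 and 423 CPM on plastic in control medium, at 338 and 254 CPM on ACP in control medium, and at 103, 166 and 145 CPM on ACP with androgen. LNCaP gave 9.15 and 6.31 CPM on plastic in control medium, 5.08 and 4.74 in stripped medium, 4.11 and 19.6 on ACP in control medium, 18.5 and 23.8 in stripped medium, and 35.0 and 29.7 with androgen. The LNCaP libraries thus ran from 4.11 to 35.0 CPM, with both the lowest and the highest on ACP. In VCaP the 9 libraries ran from 1.83 to 6.18 CPM, and in MDAPCa2a the 8 ran from 0.318 to 2.07 CPM. All 7 RWPE libraries therefore lay above all 27 libraries of the cancer lines. On plastic in control medium LNCaP was lower than RWPE by a log2 difference of -5.78 ± 0.49 (SE; edgeR adjusted p = 3.86e-10), and VCaP and MDAPCa2a were lower by -7.26 and -7.82. On ACP with androgen the difference between LNCaP and RWPE was -2.09 ± 0.40 (adjusted p = 5.91e-05).

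LAMB2, the beta chain typical of muscle, vascular and kidney basement membranes, went the other way. In RWPE it lay between 0.876 and 5.16 CPM in all 7 libraries. LNCaP gave 239.7 and 249 CPM on plastic in control medium, 332 and 230 in stripped medium, 99.96 and 169 on ACP in control medium, 180 and 174 in stripped medium, and 161 and 180 with androgen. MDAPCa2a lay at 270 and 291 CPM on plastic in control medium, 345 and 268 in stripped medium, 169 and 222 on ACP in stripped medium, and 203 and 260 with androgen. VCaP was intermediate, at 24.4 to 84.5 CPM, and no library of VCaP overlapped with one of RWPE, LNCaP or MDAPCa2a. The log2 difference from RWPE on plastic in control medium was 5.85 ± 0.37 in LNCaP (edgeR adjusted p = 2.65e-12), 6.05 ± 0.38 in MDAPCa2a (1.31e-12) and 3.31 ± 0.34 in VCaP (6.94e-09). LNCaP and MDAPCa2a did not differ past the threshold in either set, with 0.20 ± 0.30 on plastic (adjusted p = 0.632) and 0.44 ± 0.30 on ACP with androgen (0.239).

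LAMB1, the widely expressed beta chain, was high in VCaP and RWPE and low in LNCaP. VCaP gave 417 and 390 CPM on plastic in control medium, 480 in stripped medium, 343 and 343 on ACP in control medium, 563 and 267 in stripped medium, and 387 and 407 with androgen. RWPE libraries ran from 138 to 264 CPM, those of MDAPCa2a from 28.6 to 58.7 CPM and those of LNCaP from 2.87 to 8.23 CPM. The ranges of the 4 lines did not overlap, though the lowest VCaP library (267 CPM) lay just above the highest RWPE library. VCaP exceeded LNCaP by 5.70 ± 0.37 on the log2 scale on plastic in control medium (edgeR adjusted p = 4.98e-12) and by 6.74 ± 0.39 on ACP with androgen (7.24e-13). VCaP also exceeded RWPE, by 0.81 ± 0.30 (adjusted p = 0.0219; lost without the first plastic library of RWPE or of VCaP) and by 1.12 ± 0.27 (0.00079).

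**Figure D1:**
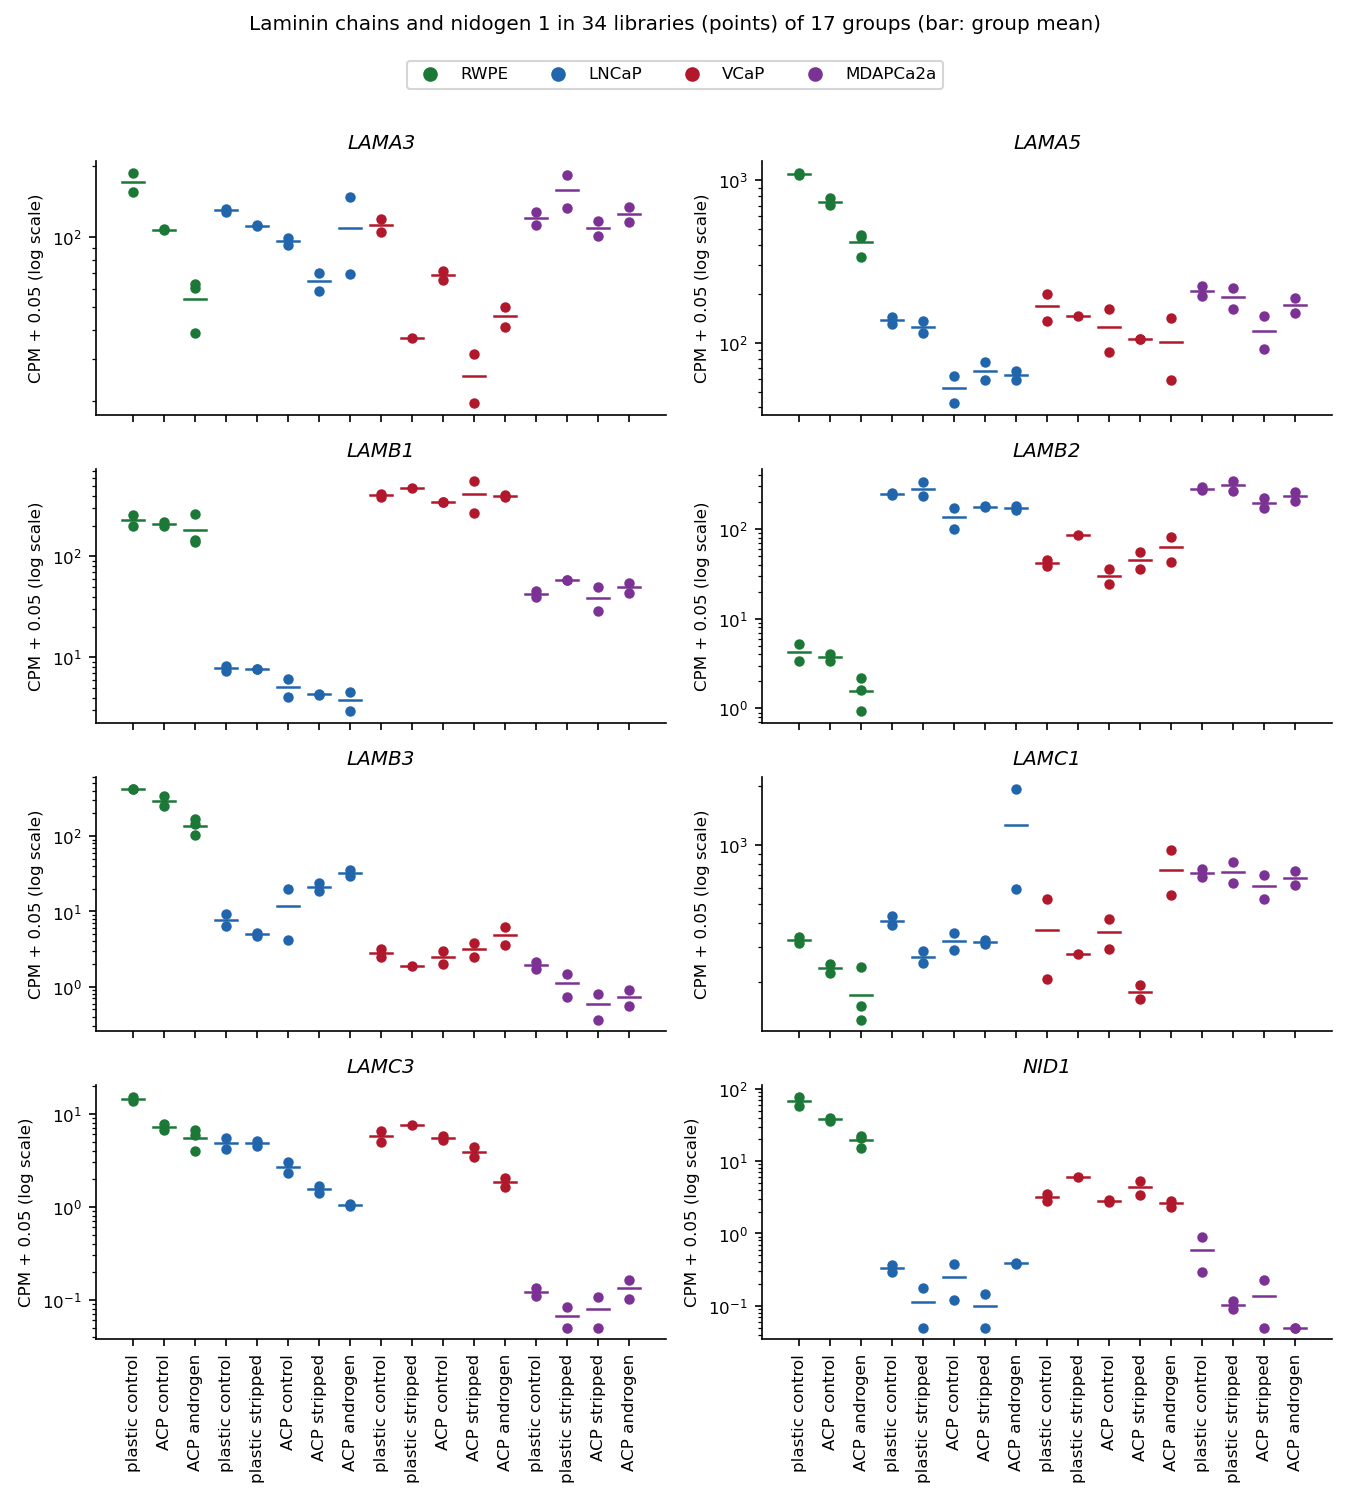
CPM in each of the 34 libraries (points, log axis of CPM + 0.05) for the 8 genes, 1 panel per gene, by group along the horizontal axis; colours give the line and the bar is the group mean. LAMB3 is high in RWPE (103 to 425 CPM), LAMB2 in LNCaP and MDAPCa2a (99.96 to 345 CPM), and LAMB1 in VCaP (267 to 563 CPM).

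LAMC1, the gamma chain of most laminins, was abundant in all 4 lines, and on plastic in control medium neighbours in the order did not differ past the threshold. MDAPCa2a gave 751 and 687 CPM there, LNCaP 431 and 388, VCaP 206 and 531, and RWPE 317 and 339. The 2 VCaP libraries spanned those of both LNCaP and RWPE. In the groups between these and the androgen groups, LNCaP lay at 286 and 250 CPM on plastic in stripped medium and at 292 and 355 CPM on ACP in control medium, VCaP at 278 CPM and at 294 and 420 CPM in the same groups. RWPE gave 247 and 222 CPM on ACP in control medium, and MDAPCa2a 824 and 637 CPM on plastic in stripped medium, so that the group means of MDAPCa2a were the highest outside the androgen groups. MDAPCa2a exceeded RWPE by 1.13 ± 0.40 on the log2 scale (edgeR adjusted p = 0.0181), and VCaP lay below MDAPCa2a by a log2 difference of -0.96 ± 0.40 (adjusted p = 0.0448). The call against RWPE was lost without either RWPE library or without the first MDAPCa2a library, and that against VCaP without the first VCaP library (-0.44) or either MDAPCa2a library, while it was -1.80 without the second VCaP library. On ACP with androgen all 3 cancer lines lay above RWPE (128, 149 and 237 CPM), by 2.89 ± 0.36 in LNCaP (adjusted p = 1.83e-07; 1.79 without the first LNCaP library and 3.50 without the second), 2.13 ± 0.36 in VCaP (1.26e-05) and 1.99 ± 0.36 in MDAPCa2a (3.14e-05), while the cancer lines did not differ among themselves past the threshold.

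LAMC3, a gamma chain found in few tissues, was present at a low level in RWPE, VCaP and LNCaP. RWPE gave 13.6 and 15.2 CPM on plastic in control medium, 7.63 and 6.57 on ACP in control medium, and 6.70, 3.94 and 5.87 with androgen. VCaP libraries ran from 1.58 to 7.54 CPM, with the 2 androgen libraries (1.99 and 1.58) the lowest, and LNCaP libraries from 0.968 to 5.39 CPM. MDAPCa2a had between 0 and 3 reads in each of its 8 libraries. On ACP with androgen, where MDAPCa2a had 3 reads in its 2 libraries together, the ratio to RWPE was 68.4 (95% interval 23.2 to 334, counting error only), that to VCaP 22.2 (7.32 to 110) and that to LNCaP 12.3 (4.01 to 61.3).

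Of the alpha chains, LAMA5, the main alpha chain of mature epithelial basement membranes, was highest in RWPE, while LAMA3 differed less from RWPE than LAMA5 did on plastic in control medium. LAMA5 lay at 1117 and 1081 CPM in RWPE on plastic in control medium, 776 and 704 on ACP in control medium, and 448, 336 and 462 with androgen. Its libraries ran from 42.4 to 144 CPM in LNCaP, 59.1 to 201 in VCaP and 91.8 to 223 in MDAPCa2a, so no cancer line library reached the RWPE range. The libraries of a group were close in some cases and far apart in others, as in VCaP on ACP at 87.9 and 162 CPM in control medium, 105 and 106 in stripped medium, and 142 and 59.1 with androgen. MDAPCa2a gave 195 and 223 CPM on plastic in control medium, 219 and 162 in stripped medium, 91.8 and 145 on ACP in stripped medium, and 153 and 190 with androgen. Relative to RWPE on plastic in control medium the log2 differences were -3.00 ± 0.34 in LNCaP (edgeR adjusted p = 4.4e-08), -2.71 ± 0.33 in VCaP (1.55e-07) and -2.39 ± 0.33 in MDAPCa2a (1.01e-06). Per kilobase of union exon length LAMA5 exceeded LAMA3 in 7 of 7 RWPE and 9 of 9 VCaP libraries. LAMA3 was the higher in 6 of 10 LNCaP libraries and LAMA5 in 6 of 8 MDAPCa2a libraries. A gene read mostly from transcripts shorter than its union length would have a higher level per kilobase. The transcripts in use were not tested, so these rankings depend on that choice of length.

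**Figure D2:**
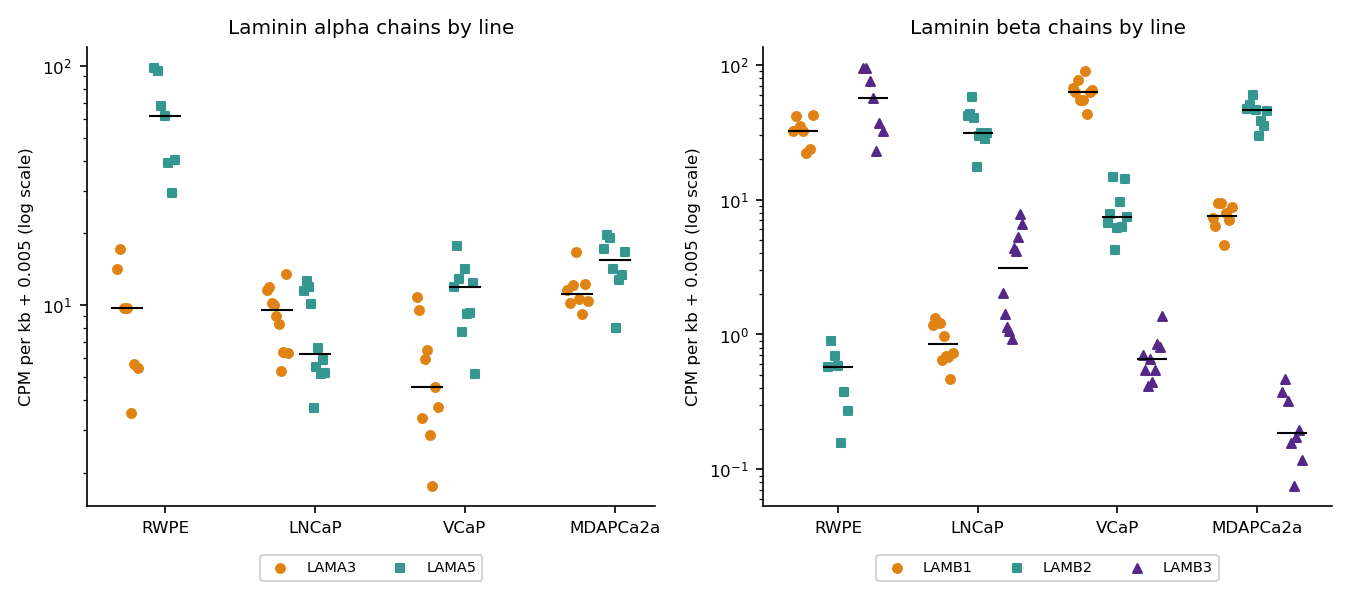
CPM per kilobase of exon (log axis of the value + 0.005) of the alpha chains LAMA3 and LAMA5 and the beta chains LAMB1, LAMB2 and LAMB3 in each library, by line; black bars are medians over the libraries of a line. The highest beta chain is LAMB3 in RWPE, LAMB2 in LNCaP and MDAPCa2a and LAMB1 in VCaP, and LAMA5 stands well above LAMA3 in RWPE.

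LAMA3, the alpha chain of hemidesmosomal laminin, was present in every library of all 4 lines. On plastic in control medium it lay at 156 and 188 CPM in RWPE, 128 and 132 in LNCaP, 119 and 105 in VCaP, and 128 and 112 in MDAPCa2a. No neighbours in that order differed past the threshold, and of the 6 pairs only VCaP against RWPE was called (-0.62 ± 0.26, edgeR adjusted p = 0.0457). That call was lost without the second RWPE library or either VCaP library, and with RLE in place of TMM scaling. In MDAPCa2a it lay at 133 and 184 CPM on plastic in stripped medium and at 117 and 101 CPM on ACP, and in LNCaP at 112 and 111 CPM on plastic in stripped medium, 99.2 and 92.3 on ACP in control medium, and 58.7 and 70.2 on ACP in stripped medium. On ACP with androgen RWPE gave 38.9, 62.7 and 60.4 CPM, below LNCaP (148 and 69.5) and MDAPCa2a (135 and 115), with log2 differences of 1.01 ± 0.24 for LNCaP (0.000644) and 1.21 ± 0.24 for MDAPCa2a (9.94e-05). Without the first LNCaP library on ACP with androgen the LNCaP difference was 0.36 (adjusted p = 0.216). VCaP gave 50.4 and 41.3 CPM there, overlapping RWPE (-0.24 ± 0.24, adjusted p = 0.397). It was below MDAPCa2a (-1.45 ± 0.27, 8.62e-05) and below LNCaP (-1.25 ± 0.27, 0.000346), the latter a call lost without the first LNCaP library (-0.60). LNCaP and MDAPCa2a thus lay below RWPE in one set, short of the threshold, and above it in the other, and the change in that difference was not tested.

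NID1 was a transcript of RWPE and, at a low level, of VCaP. RWPE gave 58.2 and 77.2 CPM on plastic in control medium, 39.3 and 36.3 on ACP in control medium, and 15.2, 22.3 and 21.0 with androgen. VCaP gave 2.74 and 3.45 CPM on plastic in control medium, 6.004 in stripped medium, 2.82 and 2.68 on ACP in control medium, 5.27 and 3.36 in stripped medium, and 2.29 and 2.80 with androgen. The 3 VCaP libraries in stripped medium were among its 4 highest. LNCaP libraries held 0 to 15 reads and MDAPCa2a libraries 0 to 28 reads. On ACP with androgen MDAPCa2a had 0 reads, and with 3 counts over the group as the floor NID1 was at least 245-fold higher in RWPE, at least 31.6-fold higher in VCaP and at least 4.17-fold higher in LNCaP. The levels of NID1 in LNCaP and MDAPCa2a and of LAMB3 and LAMC3 in MDAPCa2a lay at or near 0.5% of the highest group or below it. So did LAMB2 in RWPE on ACP with androgen (0.49%) and LAMB3 in VCaP on plastic in stripped medium (0.43%). In the other VCaP groups LAMB3 lay between 0.58% and 1.15% of its highest group. Whether reads carried over between libraries contribute to any of these levels was not tested.

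Counted over the 8 genes, the differences between lines were frequent, as they were over all genes. On plastic in control medium 6 of 8 passed the threshold for LNCaP against RWPE (1 higher, 5 lower; 57.4% of all 17323 genes tested), 7 for VCaP against RWPE (2 higher, 5 lower; 62.4%) and 7 for MDAPCa2a against RWPE (2 higher, 5 lower; 56.7%). Between cancer lines there were 4 for VCaP against LNCaP (52.6% of all genes), 3 for MDAPCa2a against LNCaP (40.2%) and 5 for VCaP against MDAPCa2a (52.4%). On ACP with androgen the counts were 8 for LNCaP against RWPE (66.9% of all genes), 7 for VCaP (67.4%) and 8 for MDAPCa2a (64.0%), and between cancer lines 6 for VCaP against LNCaP (56.0%), 5 for MDAPCa2a against LNCaP (45.3%) and 7 for VCaP against MDAPCa2a (51.4%). In all, 32 of 48 tests passed on plastic and 41 of 48 on ACP with androgen. The median log2 difference of the 8 genes from RWPE on plastic was -2.30 in LNCaP, -0.97 in VCaP and -2.42 in MDAPCa2a, beside medians over all genes of 0.01, 0.04 and -0.003. The media differed between lines on plastic, so line and medium cannot be told apart there.

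**Figure D3:**
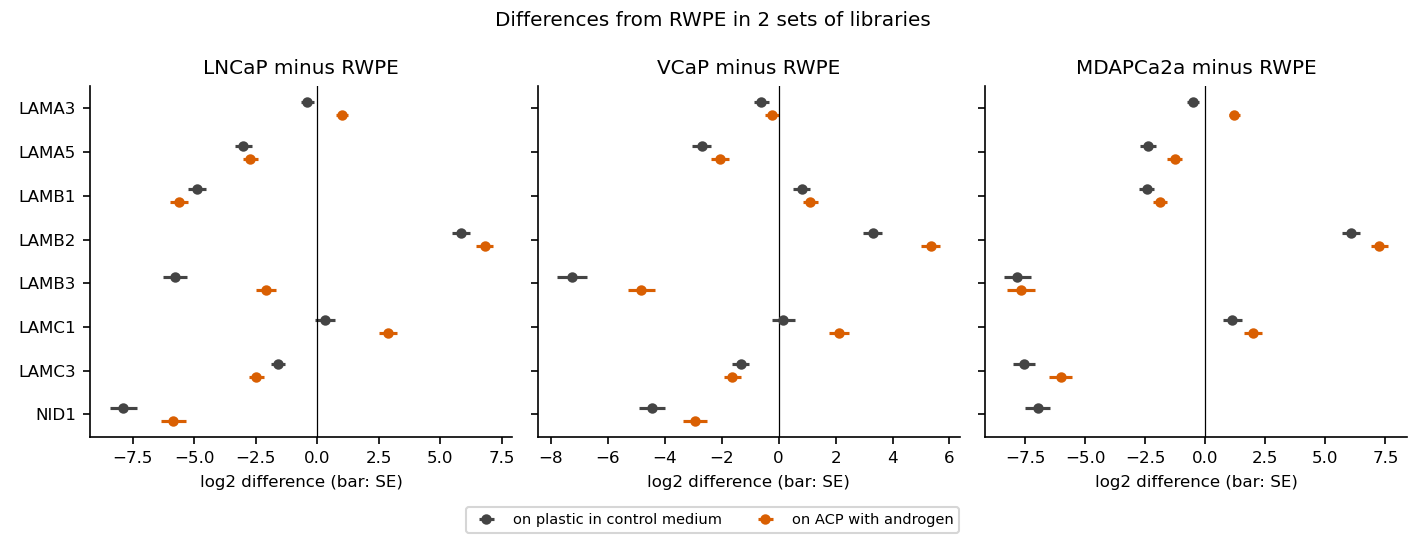
Log2 difference from RWPE (points, with SE bars) of each of the 8 genes in LNCaP, VCaP and MDAPCa2a, on plastic in control medium (grey) and on ACP with androgen (orange), from edgeR fits of all 34 libraries; NID1 in MDAPCa2a with androgen is left out because it had 0 reads. LAMB2 lies above 0 in all 3 cancer lines (3.31 to 7.25), LAMB3, LAMA5, LAMC3 and NID1 lie below 0, and LAMB1 is above 0 in VCaP alone.

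Receptor and other basement membrane genes differed from RWPE mostly downward in LNCaP and MDAPCa2a, and in both directions in VCaP. The counts stand beside 57.4% of all genes called in either direction for LNCaP, 62.4% for VCaP and 56.7% for MDAPCa2a, and by themselves say nothing particular about the lists. Of 11 laminin receptor and hemidesmosome genes tested on plastic in control medium, 8 were lower and 2 higher in LNCaP than in RWPE, 7 lower and 3 higher in VCaP, and 7 lower and 2 higher in MDAPCa2a. The largest fall in all 3 was COL17A1, the transmembrane collagen of hemidesmosomes, which lay at 377 to 1538 CPM in RWPE and at no more than 4.24 CPM elsewhere. The largest rises were DAG1 (dystroglycan) in LNCaP at 1.16, BCAM, a receptor for LAMA5, in VCaP at 1.74, and CD151, a tetraspanin partner of laminin-binding integrins, in MDAPCa2a at 1.55. Of 15 other basement membrane genes, 8 were lower and 0 higher in LNCaP, 7 lower and 5 higher in VCaP, and 9 lower and 2 higher in MDAPCa2a. FREM2 in VCaP (log2 difference 6.47 ± 0.65) and FRAS1 in MDAPCa2a (6.30 ± 0.58), both proteins of the epithelial Fraser complex, were the largest rises, and FBLN1 in LNCaP (-6.55) and COL4A1 in VCaP (-6.45) the largest falls there.

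Addition of androgen to stripped medium on ACP was accompanied by a higher LAMC1 level in LNCaP and VCaP. In LNCaP, LAMC1 was measured at 327 and 311 CPM in stripped medium and at 1944 and 594 CPM with androgen. The groups did not overlap, and the first androgen library stood far above the second. The log2 difference was 1.99 ± 0.40 (edgeR adjusted p = 0.0141). It was 0.87 (adjusted p = 0.0186) without the first androgen library and 2.61 without the second, and the call was lost without either stripped library. In VCaP, LAMC1 was measured at 192 and 162 CPM in stripped medium and at 940 and 556 CPM with androgen, again without overlap, a difference of 2.08 ± 0.42 (adjusted p = 0.0102). This ranged from 1.68 to 2.41 when 1 library was left out, and the call was lost without either stripped library or without the first androgen library. In MDAPCa2a the LAMC1 values of 530 and 702 CPM in stripped medium and 627 and 735 CPM with androgen overlapped (0.11 ± 0.20, adjusted p = 0.969).

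In VCaP the other called gene of the set was LAMA3, at 31.5 and 19.4 CPM in stripped medium and 50.4 and 41.3 CPM with androgen (0.85 ± 0.24, edgeR adjusted p = 0.0391), a call lost without the second stripped library or without either androgen library. LAMB3 was at 2.44 and 3.81 CPM in stripped medium and 3.59 and 6.18 CPM with androgen, which overlapped. LAMC3 had the opposite sign in both lines without passing the threshold, with -1.10 ± 0.35 in VCaP (adjusted p = 0.0529) and -0.60 ± 0.31 in LNCaP (0.262). The call for LAMC1 was thus the only one of 8 in LNCaP (7.73% of all genes called), VCaP had 2 of 8 (17.5%), and MDAPCa2a had 0 of the 6 genes tested (0% of 13626 genes). There edgeR gave 236 genes, none of the 6 among them, an unadjusted p below 0.05, and DESeq2 called 3 genes, again none of the 6.

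**Figure D4:**
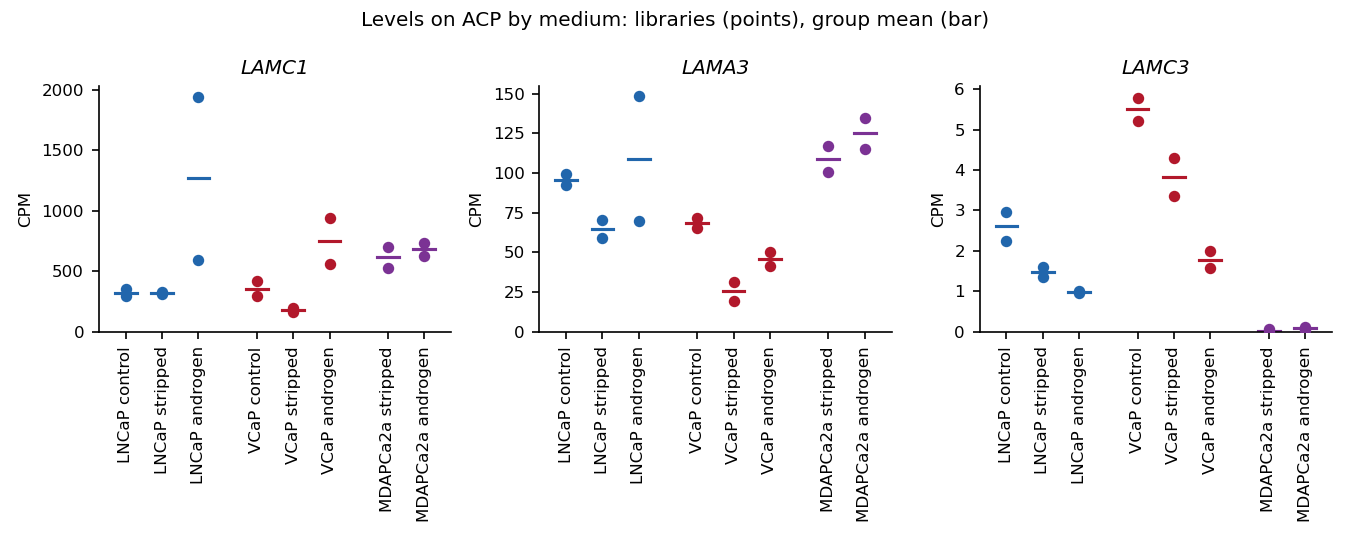
CPM of LAMC1, LAMA3 and LAMC3 on ACP by medium in LNCaP, VCaP and MDAPCa2a (points are libraries, linear axis from 0). LAMC1 in both androgen libraries of LNCaP (594 and 1944 CPM) and of VCaP (556 and 940 CPM) lies above the stripped libraries of the same line, and in MDAPCa2a the groups overlap.

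The androgen response of established target genes was present in LNCaP and VCaP in these libraries. FKBP5, a glucocorticoid and androgen receptor target, rose by 1.94 ± 0.24 on the log2 scale in LNCaP and by 3.31 in VCaP, and TMPRSS2 by 2.27 and 2.91. Neither they nor KLK3 were called in MDAPCa2a. There, on ACP in stripped medium, FKBP5 lay at 380 and 320 CPM, TMPRSS2 at 1300 and 874 and KLK3 at 11700 and 7010. Each was above its plastic control libraries, which belong to the set that stood apart. What these levels mean for LAMC1 in MDAPCa2a was not tested. Among the other genes of the pathway in VCaP, LAMA4, an alpha chain of vessel and muscle laminins, rose from 0.328 and 0.488 CPM to between 3.55 and 3.99 CPM (3.21 ± 0.55, edgeR adjusted p = 0.0056), the only call among 4 other laminin and nidogen genes tested and described here. Of 11 receptor genes 3 rose and 1 fell in VCaP, with ITGA6, the integrin alpha-6 subunit, rising by 0.88 ± 0.18 (0.0108) and ITGB4, its hemidesmosomal partner, falling (-2.03 ± 0.50, 0.0224). Of 14 other basement membrane genes 0 rose and 3 fell, the largest being the netrin NTN4 at -3.37 ± 0.40 (0.00141). In LNCaP 0 of 11 receptor genes and 1 of 12 other basement membrane genes, the collagen chain COL4A5 (0.61 ± 0.15), were called. Over all genes 17.5% were called in VCaP and 7.73% in LNCaP. Beside these shares the counts by themselves say nothing particular about the lists. Markers of other cell types moved in VCaP too. The summed CPM of 3 endothelial markers was 0.683 to 1.43 in stripped medium and 12.1 with androgen in both libraries, with PECAM1 at 0 and 0.656 and then 7.92 and 8.76 CPM, VWF at 0.683 and 0.779 and then 4.2 and 3.37 CPM, and CDH5 at no more than 0.0723 CPM in any VCaP library. The sum of 6 fibroblast markers was 41.5 to 162.6 CPM in stripped medium and 7.75 to 8.63 CPM with androgen, carried mostly by LUM (36.7 and 153, then 1.25 and 4.12), while COL1A1 overlapped between the groups and 1 of the 6 was at 0 in the stripped libraries. The part of these in the laminin results was not tested.

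The difference of the androgen effect between lines was tested directly. For LAMC1 the effect in VCaP exceeded that in MDAPCa2a by 1.94 ± 0.56 on the log2 scale (edgeR adjusted p = 0.0336, called; 7.86% of all genes), and the call was lost in 6 of 8 fits that left out 1 library (1.51 to 2.27). The effect in MDAPCa2a minus that in LNCaP was -1.85 ± 0.56 (adjusted p = 0.117), where edgeR called 0 of 8 genes (1.12% of all genes), the unadjusted p was below 0.05 for LAMC1 and NID1, and LAMC1 was called by DESeq2. VCaP and LNCaP differed by 0.09 ± 0.56 (adjusted p = 0.985), an estimate whose SE leaves room for a difference in either direction. The only gene of the 8 called for VCaP minus LNCaP was NID1 (-3.39 ± 1.02, adjusted p = 0.0337; 10.9% of all genes). It rests on 3 reads in the LNCaP stripped libraries against 20 reads with androgen, a ratio of 6.66 (95% interval 1.97 to 35), and the call was lost in 6 of 8 fits that left out 1 library. These comparisons share libraries with one another and with those above.

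In RWPE, where no stripped group exists, androgen medium was compared with control medium on ACP, and 5 of the 8 genes were lower (19.1% of all genes were called). LAMB3 fell from 338 and 254 CPM to 103, 166 and 145 CPM (log2 difference -1.08 ± 0.22, edgeR adjusted p = 0.0172) and LAMA3 from 108 and 107 CPM to 38.9, 62.7 and 60.4 CPM (-0.97 ± 0.21, 0.0195). LAMA5 (-0.81 ± 0.18, 0.0204), NID1 (-0.93 ± 0.20, 0.0183) and LAMB2 (-1.26 ± 0.37, 0.0402; 14 to 36 reads per androgen library) fell as well. For all 5 the highest androgen library lay below the lowest control library. LAMB1 (-0.17), LAMC1 (-0.44) and LAMC3 (-0.35) overlapped between the groups and were not called. The median of the 8 genes was -0.87, against -0.02 over all genes. All 5 calls were lost without either control library, and that of LAMB2 also without the first androgen library or in a fit without the plastic control libraries.

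The called genes of 2 other lists were lower in RWPE as well. Of 11 receptor genes 5 fell and 0 rose, with BCAM at -1.29 ± 0.31. Of 12 other basement membrane genes 5 fell and 0 rose, with COL18A1, the collagen that carries endostatin, at -1.24 ± 0.27. Over all 14293 genes tested, 1579 rose and 1151 fell, 19.1% called in either direction. The basal markers KRT5 (-1.16 ± 0.36, edgeR adjusted p = 0.0463) and TP63 (-0.82 ± 0.22, 0.029) fell in the same comparison. The summed CPM of 3 basal markers was 12540 to 15700 in control medium and 3348 to 10950 with androgen, none of them at 0, and its part in the laminin result was not tested. Control medium was serum-free, and the protocol, which is written for all lines together, puts stripped serum in the androgen medium. The base medium of the RWPE androgen cultures is not given separately, so the androgen and any change of medium cannot be told apart.

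On ACP against plastic in stripped medium, LNCaP showed a lower LAMC3 level, which belongs to the rule by which the genes were chosen and is given without a test. LAMC3 lay at 5.08 and 4.49 CPM on plastic and at 1.36 and 1.61 CPM on ACP, a log2 difference of -1.65, and the groups did not overlap. The same gene was at 7.54 CPM in the single VCaP library on plastic and at 3.36 and 4.30 CPM on ACP. The ACP level in LNCaP was also low in the other media, at 2.25 and 2.96 CPM in control medium and at 0.968 and 1.01 CPM with androgen, against 4.12 and 5.39 CPM on plastic in control medium. All 6 LNCaP libraries on ACP thus lay below all 4 on plastic. The rule used those in stripped medium, so nothing is read from this separation. In control medium alone LAMC3 was not called (-0.77 ± 0.27, edgeR adjusted p = 0.0817). The plastic control libraries there belong to the set that stood apart.

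Of the genes not named in the rule, LAMA5 fell and LAMB3 rose in LNCaP on ACP. LAMA5 was measured at 136 and 115 CPM on plastic and at 75.8 and 58.9 CPM on ACP (-0.87 ± 0.19, edgeR adjusted p = 0.0256). Its call was lost without the first plastic library or either ACP library, and in the fit of all 34 libraries. LAMB3 was measured at 5.08 and 4.74 CPM on plastic and at 18.5 and 23.8 CPM on ACP (2.14 ± 0.52, adjusted p = 0.036), a call lost when any 1 of the 4 libraries was left out, and in a fit without the plastic control libraries. These were 2 of the 7 genes other than LAMC3 (6.12% of all genes were called), and nothing is read from LAMC3 beside that share. LAMA3 (-0.76 ± 0.28, adjusted p = 0.116), LAMB1 (-0.81 ± 0.27, 0.0914) and LAMB2 (-0.62 ± 0.21, 0.1) were not called. KLK3, the androgen-regulated protease PSA, rose by 3.73 ± 0.19 (edgeR adjusted p = 8.68e-06) in the same comparison. KLK2 was also higher on ACP, at 46.8 and 44.8 CPM against 7.03 and 7.6 CPM on plastic. TMPRSS2 lay at 196 and 185 CPM on ACP against 160 and 129 CPM. FKBP5 overlapped, at 58.5 and 77.4 CPM on ACP against 62.9 and 75.4 CPM. The part of these genes in the laminin results was not tested. No receptor gene and 1 of 12 other basement membrane genes, the proteoglycan AGRN (-0.77), passed.

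In MDAPCa2a the same comparison gave 0 calls among the 6 genes tested (0.00734% of all genes were called) and in VCaP 0 of 8 (0% of 15614 genes, 511 of them at an unadjusted p below 0.05, and 3 called by DESeq2). At an unadjusted p below 0.05 edgeR had LAMA5 and LAMB2 in MDAPCa2a and LAMB2 and LAMC3 in VCaP, and DESeq2 called none of the 8 genes in either line. The estimates in MDAPCa2a were -0.46 ± 0.21 for LAMA3, -0.60 ± 0.23 for LAMA5, -0.52 ± 0.23 for LAMB1 and -0.56 ± 0.20 for LAMB2, and none of these 4 passed the threshold. The protein coating was absent from ACP in this line, so coating and mineral cannot be told apart. The difference of the surface effect between MDAPCa2a and LNCaP was called by edgeR for 0 of 8 genes (0.358% of all genes). LAMB3 alone had an unadjusted p below 0.05, at -3.08 ± 0.83 (edgeR adjusted p = 0.109), and DESeq2 called it.

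**Figure D5:**
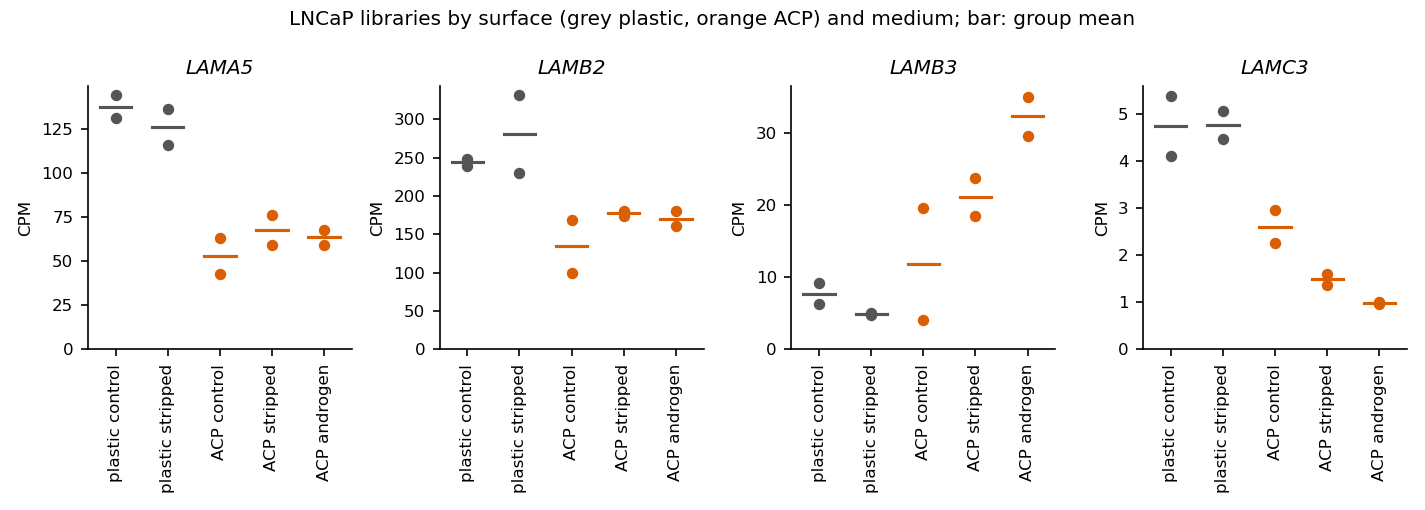
CPM of LAMA5, LAMB2, LAMB3 and LAMC3 in the 10 LNCaP libraries (points, linear axis from 0), on plastic (grey) and ACP (orange) by medium. LAMC3 lies at 0.968 to 2.96 CPM in the 6 ACP libraries and at 4.12 to 5.39 CPM in the 4 plastic ones. The rule by which the genes were chosen used the LAMC3 values in stripped medium. LAMB3 is highest in the ACP libraries with androgen (29.7 and 35.0 CPM).

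In control medium LNCaP also had lower LAMA5 on ACP, at 42.4 and 62.8 CPM against 131 and 144 CPM on plastic (-1.29 ± 0.19, edgeR adjusted p = 0.00833), and lower LAMB2, at 99.96 and 169 CPM against 239.7 and 249 CPM (-0.76 ± 0.22, 0.042). These were 2 of 8 genes (12.6% of all genes). Both calls were lost without either plastic library, and that of LAMB2 also without the first ACP library. RWPE had 0 of 8 genes called (4.16% of all genes), with LAMC3 (-0.99 ± 0.26, adjusted p = 0.0573) and NID1 (-0.82 ± 0.22, 0.0604) nearest the threshold, and VCaP had 0 of 8 (0.0448%). At an unadjusted p below 0.05 edgeR had LAMA3, LAMA5, LAMC3 and NID1 in RWPE and LAMA3 in VCaP, and DESeq2 called LAMC3 and NID1 in RWPE and none in VCaP. In all 3 lines the plastic control libraries belong to the set that stood apart.

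Removal of steroids from the serum was accompanied by a lower LAMA3 level in VCaP. On ACP LAMA3 was measured at 65.6 and 71.6 CPM in control medium and at 31.5 and 19.4 CPM in stripped medium (-1.41 ± 0.25, edgeR adjusted p = 0.0396), 1 of 8 genes (0.820% of all genes); the difference ranged from -1.84 to -1.10 when 1 library was left out, and the call was lost in all 4 such fits. This comparison shares its stripped libraries with the androgen comparison above. LAMC1 was not called for stripped against control medium on ACP. Its log2 difference was -0.035 ± 0.382 in LNCaP (edgeR adjusted p = 0.97) and -0.99 ± 0.40 in VCaP (0.26). On plastic LAMA3 was at 119 and 105 CPM in control medium and 37.1 CPM in the single stripped library. That library has no replicate and is assumed to vary like the other VCaP groups; on that assumption the difference was -1.56 ± 0.32 (adjusted p = 0.0533), with 0 of 8 genes called (0.890%). LNCaP had 0 of 8 called on ACP (5.37%) and 0 of 8 on plastic (9.45%), and MDAPCa2a 0 of 6 on plastic (1.58%). In these comparisons without a call edgeR gave an unadjusted p below 0.05 to LAMA3, LAMB2 and NID1 in VCaP on plastic and to LAMC3 in LNCaP on ACP, and DESeq2 called LAMA3 in VCaP on plastic alone. In LNCaP the receptor subunit ITGA6 (-0.86 ± 0.21, edgeR adjusted p = 0.0377) and the alpha chain LAMA1 (-2.10 ± 0.535, 0.0452) fell in stripped medium on ACP. LAMA1 was low and its control libraries lay far apart, at 2.26 to 9.16 CPM against 1.09 to 1.62 CPM in stripped medium. In VCaP the proteoglycan HSPG2, perlecan, fell in stripped medium on ACP (-1.82 ± 0.26, 0.0299).

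The genes whose level most resembled each of these genes were found by Pearson's r over the 17 group means of log2 CPM, among 17322 genes. They were, for LAMB1, BACE2 (r = 0.984), HP1BP3 (0.983) and SMARCA1 (0.98), and for LAMB3, OASL (0.973), RTFDC1 (0.967) and TMEM40 (0.962). LAMA5 was nearest to MTSS1L (0.983), LAMC3 to FERMT1 (0.983), NID1 to BMP2 (0.969), LAMA3 to SMC1A (0.933) and LAMC1 to CYTH1 (0.928). Among the 8 genes themselves LAMB2 ran against NID1 (-0.886) and LAMB3 (-0.745). The 17 groups come from 4 lines, so these values mostly describe the order of the lines, and they are given without a test.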

How the data were processed

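Poly(A) RNA of 4 prostate cell lines was sequenced in 34 libraries. The authors deposited whole-number read counts per gene symbol, not normalized, in 1 table. The submitters' processing notes name STAR, HTSeq and hg19, with versions, annotation and use of strand not given in the sources used here. Whether reads of LAMA5 and LAMA5-AS1 were separated is therefore not known.

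Counts were fitted with edgeR 4.0.16 in R 4.3.3 by its quasi-likelihood test after TMM scaling and a filter (filterByExpr, minimum count 10). A gene was called at a Benjamini-Hochberg adjusted p below 0.05 over all genes tested. Comparisons within a line used that line's libraries, and comparisons between lines, or of effects between lines, all 34. Standard errors are the log2 difference divided by the square root of F. CPM per kilobase used union exon lengths from GENCODE v29 on GRCh38, and promoters came from RefSeq on GRCh38.p14. Intervals and the floor of 3 counts cover counting error only.

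The 8 genes, the lists of other laminin chains and nidogen, receptors and other basement membrane genes, and the tests were chosen with earlier results of these data known. All 8 genes are named. In each list the largest rise and fall among called genes may be named, and ITGB4 was named by that rule. The 3 genes of highest r were listed for likeness; 1 gene of the design and some likeness values are not reported here. Alternatives were RLE scaling, no count filter, DESeq2 1.42.0, a replicate block, a different set of libraries in the fit, an absolute log2 change of at least 1, and leaving out each library. The fit without the plastic control libraries was chosen after seeing the data. The fits were tested on simulated counts.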

Additional observations from a re-analysis of the deposited data

Results flagged for a closer look

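The androgen effect on NID1 on ACP differed between VCaP and LNCaP, by -3.39 on the log2 scale (edgeR adjusted p = 0.0337), a test of the difference of 2 effects. NID1 was at 5.27 and 3.36 CPM in stripped medium and 2.29 and 2.80 CPM with androgen in VCaP, while LNCaP had 3 reads in its stripped libraries and 20 with androgen. The androgen effect on LAMC1 on ACP differed between VCaP and MDAPCa2a by 1.94 (adjusted p = 0.0336). LAMC1 was higher in 2 of 2 androgen libraries of VCaP than in its stripped libraries, and the MDAPCa2a groups overlapped. Each of these calls was lost in 6 of 8 fits that left out 1 library.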

How the results depend on the processing

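Counts of the 8 genes called between lines moved little: 29 to 35 on plastic in control medium (32 as reported) and 39 to 43 on ACP with androgen (41 as reported) under other scaling, filter, tool, block, libraries in the fit or a minimum change, and the fit without the plastic control libraries gave 40. The within-line counts moved more. For androgen against stripped medium (3 as reported) leaving out 1 library gave 1 to 4. For RWPE androgen against control medium (5 as reported) an absolute log2 change of at least 1 left 2, and leaving out 1 library gave 0 to 7. For ACP against plastic in stripped medium (3, with LAMC3 in LNCaP, which the choice of genes used, so nothing is read from its stability) the count was 5 without the filter and 5 with DESeq2, and 0 to 4 without 1 library. For stripped against control medium on ACP (1 as reported) it was 4 without the filter and 0 to 3 without 1 library. For ACP against plastic in control medium (2 as reported) it was 1 with the minimum change, 4 without the filter, 4 with DESeq2 and 0 to 2 without 1 library. For stripped against control medium on plastic (0 as reported) it was 1 without the filter, 1 with DESeq2 and 2 in the fit of all 34 libraries. For differences of effects between lines (2 as reported) it was 4 without the filter, 4 with DESeq2, 1 in the fit of the compared groups and 0 to 2 without 1 library. The cause of these shifts was not tested.

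Replicate numbers showed no general pairing of the libraries: over 25 pairs of groups the correlation of deviations ran from -0.234 to 0.207, with 6 above 0.1. These values cannot exclude pairing in some of the groups. A replicate block within each line gave 32 and 40 calls between lines, 7 for RWPE androgen medium, 3 for androgen, 3 for surface in stripped medium, 1 for stripped medium on ACP, 6 for surface in control medium, 0 for stripped medium on plastic and 2 for differences of effects.

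No called value changed direction under the alternatives run. Of the single-gene values, leaving out 1 library kept 918 on their side of the threshold, weakened 72, strengthened 12 and moved 84. The other alternatives kept 1514, weakened 28, strengthened 38 and moved 13. Weakened values lost their call, strengthened values gained one, and moved values changed sign without a call in either fit.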
